A study of Mus musculus with 23 samples.

Results

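The 9 regulators of interferon and cytokine signaling described here are the signal transducers Stat2 and Stat3, the interferon regulatory factors Irf1, Irf2, Irf7, Irf8 and Irf9, and the suppressors of cytokine signaling Socs1 and Socs3. They were taken by name from a table of 47643 genes, where each has 1 row, and were followed in all 23 libraries. B16F10, a melanoma cell line of C57BL/6 mice, was measured as bulk tumors, as tumor cells sorted from tumors and as cultured cells. The genotype label is WT for the control groups, and the edited groups carry a guide RNA against the nuclear receptor gene Nr2f6, sg492 or sg495. Each of these 9 groups had 2 libraries, 18 in all. Edited cells had received Cy3-labeled guide RNA with Cas9 protein and were sorted for Cy3, so that an edited group is a sorted population and was not stated to be 1 clone. Tumors grew under the skin of young adult male C57BL/6 mice with an intact immune system. Sorted tumor cells came from collagenase-digested tumors after magnetic depletion of stromal cells. A further 5 libraries, labeled WT for Nr2f6, carry the treatments IgG (2) and anti-PD1 (3), with no cell type given. Levels are TPM, a transcript abundance scaled for gene length and library. TPM retain no read count, so no counting interval could be given. The labels give 23000000 to 31000000 reads as the depth of sequencing.

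Interferons and many cytokines signal through receptor-bound JAK kinases, which phosphorylate STAT proteins. Type I interferon joins Stat2 and Irf9 with a further STAT into ISGF3, a complex that binds the interferon-stimulated response element (ISRE). Interferon-γ produces STAT dimers that bind the gamma-activated site (GAS), and Irf1 is among the genes turned on early and itself activates later targets such as the antigen-presentation genes. Irf2 binds much the same sites as Irf1 and often opposes it, Irf7 amplifies the type I interferon response, and Irf8 directs the development of macrophages and dendritic cells. Stat3 carries signals of the IL-6 family. Socs1 and Socs3 are feedback inhibitors, Socs1 mainly of interferon receptors and Socs3 mainly of the IL-6 receptor subunit gp130.

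The stretches of promoter below show which regulators carry these binding motifs close to their own start. Sequences are from RefSeq on GRCm38.p6, written 5′ to 3′ on the strand of the gene, and end upstream of the RefSeq start. Capitals mark matches to the GAS motif TTCNNNGAA or to the ISRE core, which is GAAA, any 2 bases and GAAA again, searched on both strands in windows from 250 bases before the start to 50 bases from it. The 9 genes have 12 such windows, since Irf1, Irf8 and Irf9 have 2 starts each.
Irf1, chr11:53769884-53769972, plus strand, 1 GAS: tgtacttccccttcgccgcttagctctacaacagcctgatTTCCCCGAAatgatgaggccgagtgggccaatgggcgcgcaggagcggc
Irf8, chr8:120736147-120736253, plus strand, 2 GAS: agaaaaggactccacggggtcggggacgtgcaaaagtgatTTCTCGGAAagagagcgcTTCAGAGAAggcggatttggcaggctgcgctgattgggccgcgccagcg
Irf2, chr8:46739495-46739569, plus strand, 1 ISRE and 1 GAS: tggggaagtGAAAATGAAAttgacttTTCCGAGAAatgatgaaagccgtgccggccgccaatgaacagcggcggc
Stat2, chr10:128270248-128270325, plus strand, 1 ISRE on the opposite strand: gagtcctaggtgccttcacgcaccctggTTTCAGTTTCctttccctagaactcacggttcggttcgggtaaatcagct
Socs1, chr16:10785564-10785659, minus strand, 2 overlapping ISRE: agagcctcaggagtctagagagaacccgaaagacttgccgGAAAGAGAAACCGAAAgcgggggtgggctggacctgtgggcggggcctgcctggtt
Socs3, chr11:117969472-117969560, minus strand, 1 GAS: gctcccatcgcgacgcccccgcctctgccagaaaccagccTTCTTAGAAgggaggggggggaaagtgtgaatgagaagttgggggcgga
The GAS letters occurred in 1 window each of 4 of the 9 genes (Irf1, Irf2, Irf8 and Socs3) and in 8.3% of all 32851 windows. The ISRE letters occurred in 1 window each of 3 of the 9 (Irf2, Stat2 and Socs1) and in 3.44% of all windows. The counts are of genes, which have 12 windows, and the percentages are of windows, so they are not on the same scale. In Irf1 the GAS lies 90 to 82 bases before the start, and in Socs1 the overlapping pair lies 83 to 68 bases before it. The windows of Stat3, Irf7 and Irf9 hold neither set of letters. A match is a description of the letters, and no binding was measured.

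The labels were checked first. Nr2f6 lay between 17.73 and 32.9 TPM in the 6 control libraries and between 10.6 and 22.43 TPM in the 6 sg495 libraries, with both sg495 libraries of a sample type under both of its controls. It lies on chromosome 8, where most genes were lower with sg495, and the part of this in its level was not tested. With sg492, Nr2f6 had 22.31 and 23.31 TPM in bulk tumors against 25.83 and 25.24 TPM in control. In cultured cells it had 26.55 and 31.5 TPM with sg492 against 31.88 and 32.9 TPM in control. In the sorted libraries labeled sg492 it had 19.84 and 25.7 TPM against 20.32 and 17.73 TPM in control, so these are named by their label. The 7 melanocyte markers sum to between 14840 and 17844 TPM in all 18 libraries. The 9 leukocyte markers sum to 208 to 535 TPM for bulk tumors, 37.34 to 61.31 TPM after sorting and 6.43 to 7.18 TPM for cultured cells. Mitochondrial genes took 8.02% of the TPM in sg495 sorted tumor cells replicate 1 and between 2.56% and 6.70% in the other 17 libraries. The IgG and anti-PD1 libraries stand apart, with 8.63% to 21.9% mitochondrial TPM, leukocyte sums of 2850 to 6361 TPM and melanocyte sums of 1663 to 5015 TPM.

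With sg495, Irf1 rose about 11.9-fold in sorted tumor cells, and Irf9 and Stat3 rose there too. In bulk tumors 8 of the 9 regulators were higher in both sg495 libraries than in both controls, and none passed the test. Of all genes tested there, 31.6% were higher in this way. For Irf1, Irf9, Stat3, Irf7 and Socs3 the bulk folds were smaller than after sorting, and for Stat2 and Socs1 they were larger. In cultured cells none of those tested was above both controls, where 27.5% of all genes were. Irf1, Irf2 and Stat2 had both sg495 libraries below both controls there without passing the test, where 28.9% of all genes were below. Of the 8 tested after sorting, Irf2 alone had both sg495 libraries below both controls, where 31.5% of all genes did. The difference of Irf2 passed the test in none of the 3 sample types. Fold changes are on the log2(TPM + 1) scale, where 1 TPM is added before the logarithm, and a gene is called at an adjusted p below 0.05 with a fold of at least 1.5 in limma's model across all genes.

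**Figure D1:**
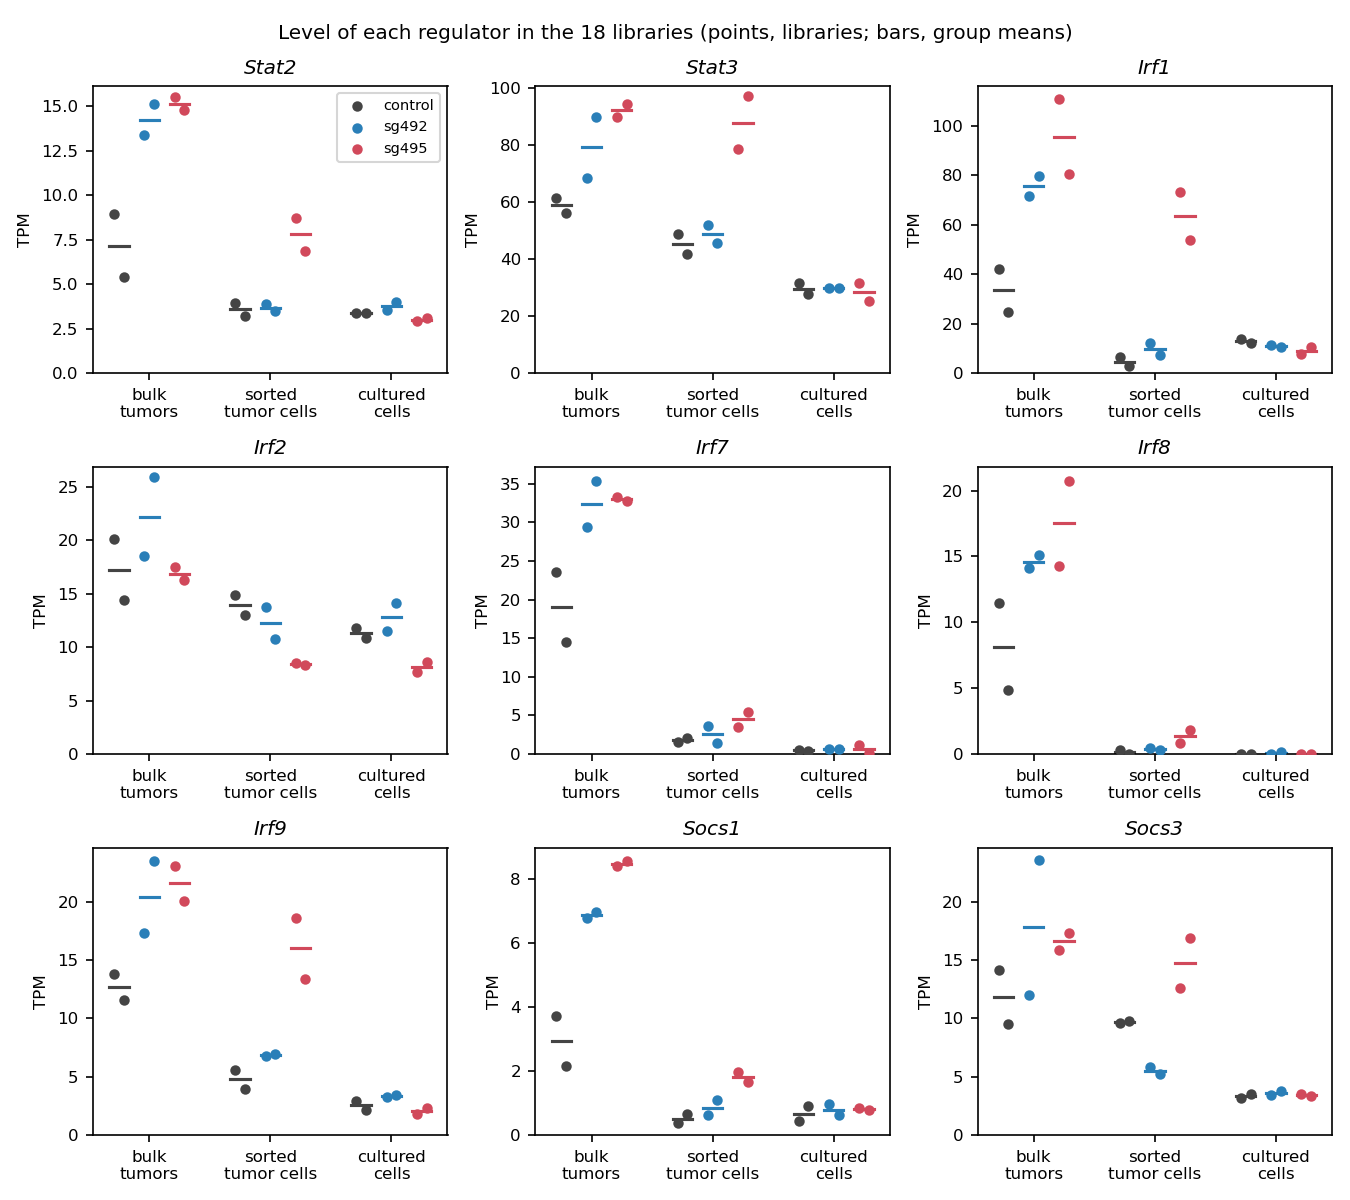
TPM of each regulator (vertical axes, from 0, each on its own scale) by sample type (bulk tumors, sorted cells, cultured cells) for control, sg492 and sg495. Points are libraries and bars are means of 2. Irf1 stood at 53.74 and 73.34 TPM in the sg495 sorted tumor cells against at most 12.34 TPM in the other sorted libraries, and Irf8 stayed at or below 1.85 TPM in sorted and cultured cells.

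Irf1 (ENSMUSG00000018899, chromosome 11 of GRCm38, 53770014 to 53778374) showed the widest difference. In sorted tumor cells the controls gave 6.4 and 2.91 TPM, the libraries labeled sg492 12.34 and 7.47 TPM and the sg495 libraries 73.34 and 53.74 TPM. Both sg495 libraries were far above the other 4. The log2 fold change of Irf1 was 3.57 (standard error 0.360, limma adjusted p = 0.0167). The control libraries differed from each other, and so did the fold with either left out, at 4.03 without control replicate 1 (adjusted p = 0.0251) and 3.11 without control replicate 2 (adjusted p = 0.0717). Without sg495 replicate 1, the library high in mitochondrial TPM, it was 3.35 (adjusted p = 0.135), and without replicate 2 it was 3.79 (adjusted p = 0.121). The bulk tumor controls had 42.16 and 24.64 TPM, the sg492 libraries 71.75 and 79.76 TPM and the sg495 libraries 110.76 and 80.49 TPM. There the edited groups lay above control, with a log2 fold change of 1.52 for sg495 (95% interval 0.89 to 2.15, adjusted p = 0.0973). For Irf1, the cultured cell controls had 13.64 and 12.27 TPM, the sg492 libraries 11.14 and 10.66 TPM and the sg495 libraries 7.69 and 10.44 TPM. Here the order was turned, with sg495 lowest, at −0.48 on the log2 scale (standard error 0.141, adjusted p = 0.0819).

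The leukocyte markers of the sorted tumor cells were also higher with sg495, with sums of 37.34 and 43.99 TPM in control and 54.12 and 61.31 TPM with sg495. Of the 9 markers, Ptprc, which encodes CD45, was at most 0.15 TPM in the 6 sorted libraries, and Cd48, Cd52 and Tyrobp were at most 0.06, 0.34 and 0.48 TPM. Laptm5 reached 1.01 TPM, Coro1a 3.29 TPM, Fcer1g 4.3 TPM, Itgb2 9.17 TPM and Lcp1, which gave most of the sum, 47.46 TPM. Of the 8 macrophage markers, 7 were at most 0.82 TPM and Cd68 had 3.62 to 12.09 TPM. Their sums were 4.4 and 5.66 TPM in control and 8.37 and 13.3 TPM with sg495. The part of these cells in the sorted values of Irf1 and the other regulators was not tested. The 15 interferon genes listed sum to at most 1.61 TPM in any of the 18 libraries, and to at most 0.23 TPM in the sg495 sorted libraries. In bulk tumors the sums were 0.34 and 0.18 TPM for control, 1.57 and 0.7 TPM for sg492 and 1.61 and 0.93 TPM for sg495. Of the 15, 0 were tested in the sg495 bulk comparison.

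**Figure D2:**
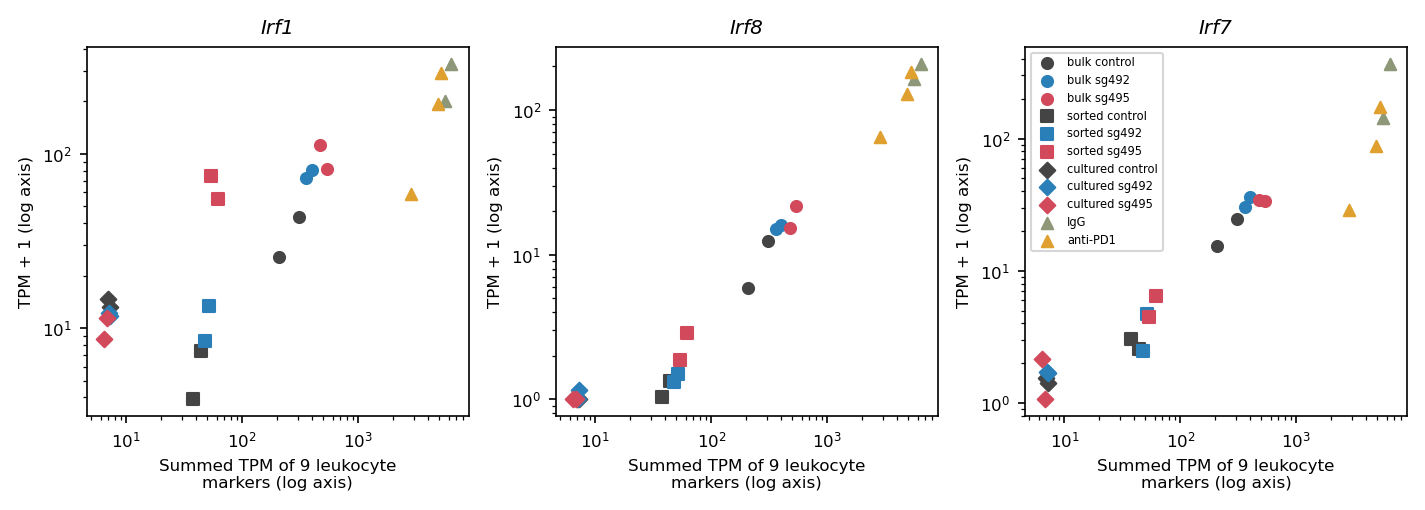
TPM + 1 of Irf1, Irf8 and Irf7 (vertical, log axes) against the summed TPM of 9 leukocyte markers (horizontal, log axes), 1 point per library, with shape for sample type and color for group. The sg495 sorted tumor cells had Irf1 at 53.74 and 73.34 TPM with leukocyte sums of 61.31 and 54.12 TPM, whereas Irf8 was at 1.85 and 0.87 TPM in the same libraries.

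Irf9 and Stat2, the DNA-binding subunit and a STAT of ISGF3, followed Irf1 at smaller size. Irf9 (ENSMUSG00000002325, chromosome 14, 55603571 to 55610030) stood at 5.61 and 3.97 TPM in the sorted controls, 6.81 and 6.9 TPM under the sorted sg492 label and 18.62 and 13.36 TPM in sorted sg495 cells. Its log2 fold change with sg495 was 1.55 (standard error 0.212, limma adjusted p = 0.0392), with both sg495 libraries above all others. The bulk tumor controls had 13.82 and 11.54 TPM of Irf9, the sg492 libraries 17.34 and 23.51 TPM and the sg495 libraries 23.07 and 20.09 TPM. The difference there, 0.72 on the log2 scale, did not pass (adjusted p = 0.124). The cultured cell controls had 2.95 and 2.12 TPM, the sg492 libraries 3.3 and 3.41 TPM and the sg495 libraries 1.79 and 2.35 TPM, where control and sg495 overlapped. Stat2 (ENSMUSG00000040033, chromosome 10, 128270559 to 128292849) stood at 3.94 and 3.21 TPM in the sorted controls, 3.88 and 3.47 TPM under the sorted sg492 label and 8.71 and 6.88 TPM in sorted sg495 cells. The log2 fold change of 0.94 (standard error 0.191) was of the same size as that of Stat3 but missed the threshold (adjusted p = 0.0966). For Stat2, the bulk tumor controls had 8.94 and 5.39 TPM, the sg492 libraries 13.39 and 15.12 TPM and the sg495 libraries 15.52 and 14.79 TPM. The log2 fold change for sg495 was 1.02 (adjusted p = 0.105). Cultured cells were nearly level, with 3.39 and 3.35 TPM for control, 3.53 and 3.99 TPM for sg492 and 2.94 and 3.08 TPM for sg495.

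Stat3 (ENSMUSG00000004040, chromosome 11, 100885098 to 100939540) was the most abundant of the 9 in each control group. It stood at 48.68 and 41.68 TPM in the sorted controls, 51.8 and 45.57 TPM under the sorted sg492 label and 78.5 and 97.07 TPM in sorted sg495 cells. Its log2 fold change with sg495 was 0.94 (standard error 0.138, limma adjusted p = 0.0465). With any of the 4 libraries left out the adjusted p of Stat3 was between 0.132 and 0.364, and that of Irf9 between 0.122 and 0.281. Without the filter on low genes Irf1 (0.0809), Irf9 and Stat3 (both 0.117) were not called, and Stat3 was not called with a pseudocount of 0.1 TPM (0.0514) or with chromosome 8 centred (0.0620). For Stat3, the bulk tumor controls had 61.54 and 55.99 TPM, the sg492 libraries 68.51 and 89.86 TPM and the sg495 libraries 89.73 and 94.46 TPM. Control and sg495 did not overlap, and the log2 fold change was 0.64 (adjusted p = 0.105). The cultured cell controls had 31.45 and 27.61 TPM, the sg492 libraries 29.99 and 29.81 TPM and the sg495 libraries 31.6 and 25.34 TPM. These overlapped, and the interval of the log2 difference for sg495 ran from −0.33 to 0.22.

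The feedback inhibitors differed in where they were found. Socs1 (ENSMUSG00000038037, chromosome 16, 10782240 to 10785536) was low in sorted and cultured cells, and sorted tumor cells gave 0.36 and 0.66 TPM for control, 0.61 and 1.09 TPM under the sg492 label and 1.97 and 1.64 TPM for sg495. The sg495 libraries were the highest, 0.90 above control on the log2 scale (limma adjusted p = 0.268). For Socs1, the bulk tumor controls had 3.71 and 2.14 TPM, the sg492 libraries 6.76 and 6.97 TPM and the sg495 libraries 8.39 and 8.55 TPM. The 3 groups did not overlap, and the log2 fold change was 1.3 for sg495 (95% interval 0.79 to 1.81, adjusted p = 0.0879) and 1.03 for sg492 (adjusted p = 0.481). Cultured cells had between 0.44 and 0.97 TPM in all 6 libraries. Socs3 (ENSMUSG00000053113, chromosome 11, 117966079 to 117970047) stood at 9.63 and 9.81 TPM in the sorted controls, 5.83 and 5.21 TPM under the sorted sg492 label and 12.62 and 16.9 TPM in sorted sg495 cells. It was the only one of the 9 with the sorted libraries of sg492 below control and those of sg495 above it, at log2 fold changes of −0.72 (adjusted p = 0.561) and 0.54 (adjusted p = 0.210). The bulk tumor controls had 14.19 and 9.5 TPM of Socs3, the sg492 libraries 12.03 and 23.6 TPM and the sg495 libraries 15.88 and 17.37 TPM, and cultured cells had between 3.16 and 3.8 TPM in all 6 libraries. The TPM of Socs1 divided by that of Socs3 was 0.261 and 0.225 in control bulk tumors and 0.528 and 0.492 in sg495 bulk tumors.

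Among the 18 libraries of the 3 sample types, Irf7 and Irf8 were highest in bulk tumors. Irf7 (ENSMUSG00000025498, chromosome 7, 141262706 to 141266481) stood at 23.55 and 14.47 TPM in the bulk controls, 29.4 and 35.4 TPM in the sg492 and 33.34 and 32.8 TPM in the sg495 tumors. In sorted tumor cells the controls gave 1.58 and 2.06 TPM, the libraries labeled sg492 3.69 and 1.48 TPM and the sg495 libraries 3.45 and 5.5 TPM, and cultured cells had at most 1.16 TPM. With sg495 both libraries exceeded both controls in bulk tumors (log2 fold change 0.81, limma adjusted p = 0.154) and in sorted tumor cells (0.94, adjusted p = 0.304). Irf8 (ENSMUSG00000041515, chromosome 8, 120736358 to 120756694) stood at 11.44 and 4.85 TPM in the bulk controls, 14.09 and 15.11 TPM in the sg492 and 14.26 and 20.75 TPM in the sg495 tumors. The log2 fold change for sg495 was 1.09 (adjusted p = 0.216). In sorted tumor cells its controls gave 0.34 and 0.03 TPM, the libraries labeled sg492 0.49 and 0.32 TPM and the sg495 libraries 0.87 and 1.85 TPM. It averaged under 1 TPM there and was not tested. Irf8 was listed at 0 in 5 of 6 libraries of cultured cells and at 0.16 TPM in the other. The macrophage markers moved the same way, with 8 genes that sum to 462 and 638 TPM for the bulk controls against 933 and 990 TPM for the sg495 tumors. The 6 fibroblast markers sum to 338 and 401 TPM for the bulk controls against 548 and 953.5 TPM for the sg495 tumors. Sums of the dendritic, T cell and endothelial markers were also above both controls, and those of the B cell and melanocyte markers overlapped. In bulk tumors, a larger share of cells of a type and more RNA per cell cannot be told apart. The part of leukocytes and of these other cells in the bulk values of all 9 regulators was not tested.

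Irf2 (ENSMUSG00000031627, chromosome 8, 46739732 to 46847458) was called in none of the 3 sg495 comparisons. In sorted tumor cells the controls gave 14.85 and 12.98 TPM, the libraries labeled sg492 13.8 and 10.8 TPM and the sg495 libraries 8.56 and 8.35 TPM. The cultured cell controls had 11.84 and 10.85 TPM, the sg492 libraries 11.55 and 14.17 TPM and the sg495 libraries 7.65 and 8.65 TPM. The sg495 libraries were the lowest in both sample types, at log2 fold changes of −0.65 (standard error 0.151, limma adjusted p = 0.131) and −0.43 (standard error 0.121, adjusted p = 0.0727). In the fit of all 18 libraries the sorted difference of Irf2 was called (adjusted p = 0.0407). For Irf2, the bulk tumor controls had 20.15 and 14.39 TPM, the sg492 libraries 18.51 and 25.95 TPM and the sg495 libraries 17.47 and 16.3 TPM. There the groups overlapped, and the interval of the log2 difference for sg495 ran from −0.51 to 0.49. Divided by Irf2, the TPM of Irf1 was 0.431 and 0.224 in control sorted tumor cells and 8.57 and 6.44 with sg495, while it was 1.15 and 1.13 in control cultured cells and 1.01 and 1.21 with sg495.

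Irf2 shares chromosome 8 with Nr2f6 and Irf8, and most genes of this chromosome were lower with sg495. The median of their log2 fold changes was −0.25 over 717 genes in bulk tumors, −0.34 over 684 genes in sorted tumor cells and −0.33 over 645 genes in cultured cells, against 0.07, −0.03 and 0.01 on the other chromosomes. The share of chromosome 8 genes below 0 was 81%, 86.1% and 90.7%. In cultured cells Irf2 was 0.10 below the chromosome's median, with 29% of its genes lower still. In sorted tumor cells it was 0.31 below the median, with 5.85% of the genes lower. In bulk tumors it was 0.24 above the median, so the sign of its difference there depends on whether chromosome 8 is centred on its own median. With sg492 the chromosome's median was 0.03, 0.02 and 0.03 in the same order.

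**Figure D3:**
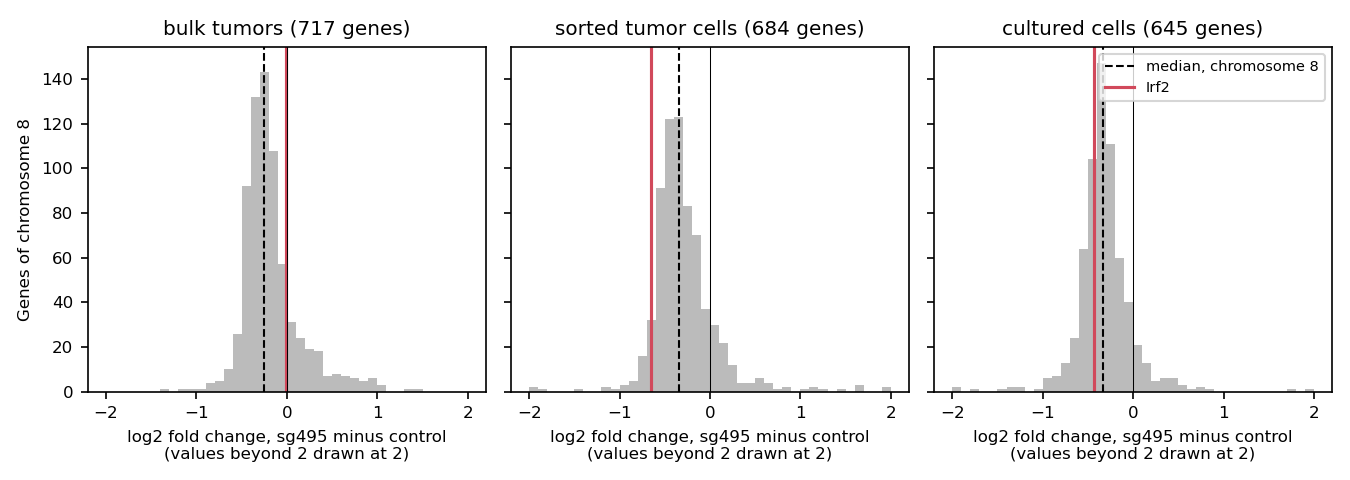
Number of chromosome 8 genes (vertical) by log2 fold change of sg495 against control (horizontal, values beyond 2 drawn at 2) by sample type (bulk tumors, sorted cells, cultured cells). The dashed line is the median of the chromosome (−0.25, −0.34 and −0.33) and the red line is Irf2, which lies to the right of it in bulk tumors and to the left in the other sample types.

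As a group, the regulators were compared with all genes tested. In sg495 sorted tumor cells 3 of the 8 tested were called, Irf1, Irf9 and Stat3, and all 8 had an unadjusted p below 0.05, where 0.899% of all genes were called and 15.6% had such a p. Of the 8, 7 had both edited libraries above both controls and Irf2 had both below, where 17.9% and 31.5% of all genes did so. Socs1 was tested only through sg495, with means of 0.51 TPM in control, 0.85 TPM under the sg492 label and 1.805 TPM with sg495. Its mean over the 6 sorted libraries, 1.055 TPM, barely passed the filter, so its place in these counts was partly set by the filter. The median log2 fold change of the 8 was 0.94, against −0.04 for all genes. In sg495 bulk tumors 0 of 9 were called and 7 of 9 had an unadjusted p below 0.05 in limma, where 0.0293% of all genes were called and 15.7% had such a p. The median of the 9 was 0.81, against 0.06 for all genes. The edited libraries were above both controls for 8 of 9 and below for 0, where 31.6% and 14.3% of all genes were. Bulk control replicate 1 had the higher level of each of the 9, and without it 4 of 9 were called (Irf1, Irf7, Stat2 and Socs1), with adjusted p between 0.0262 and 0.0367, where 1.39% of all genes were called in that fit. In sg495 cultured cells 0 of 6 were called and 2 (Irf1 and Irf2) had an unadjusted p below 0.05, where 2.77% of all genes were called and 27.8% had such a p. Of the 6 tested, 3 had both sg495 libraries under both controls (Irf1, Irf2 and Stat2) and 0 had both above, where 28.9% and 27.5% of all genes were.

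With guide sg492 none of the 9 was called in any sample type. In bulk tumors all 9 log2 fold changes were above 0, from 0.35 for Irf2 to 1.20 for Irf1, with a median of 0.77. None was called by limma (adjusted p from 0.481 to 0.687), 7 had an unadjusted p below 0.05, and of all genes 0% were called and 8.3% had such a p. These values share the control libraries with the sg495 comparison. In the sorted libraries labeled sg492, 0 of 8 were called and 2 had an unadjusted p below 0.05, Irf1 (0.98, adjusted p = 0.656) and Socs3, where 0.0388% of all genes were called and 7.13% had such a p. In sg492 cultured cells 0 of 6 were called and 0 had an unadjusted p below 0.05, where 0.05% of all genes were called and 10.5% had such a p. Irf1 was at −0.23 there, with an interval from −0.57 to 0.12.

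**Figure D4:**
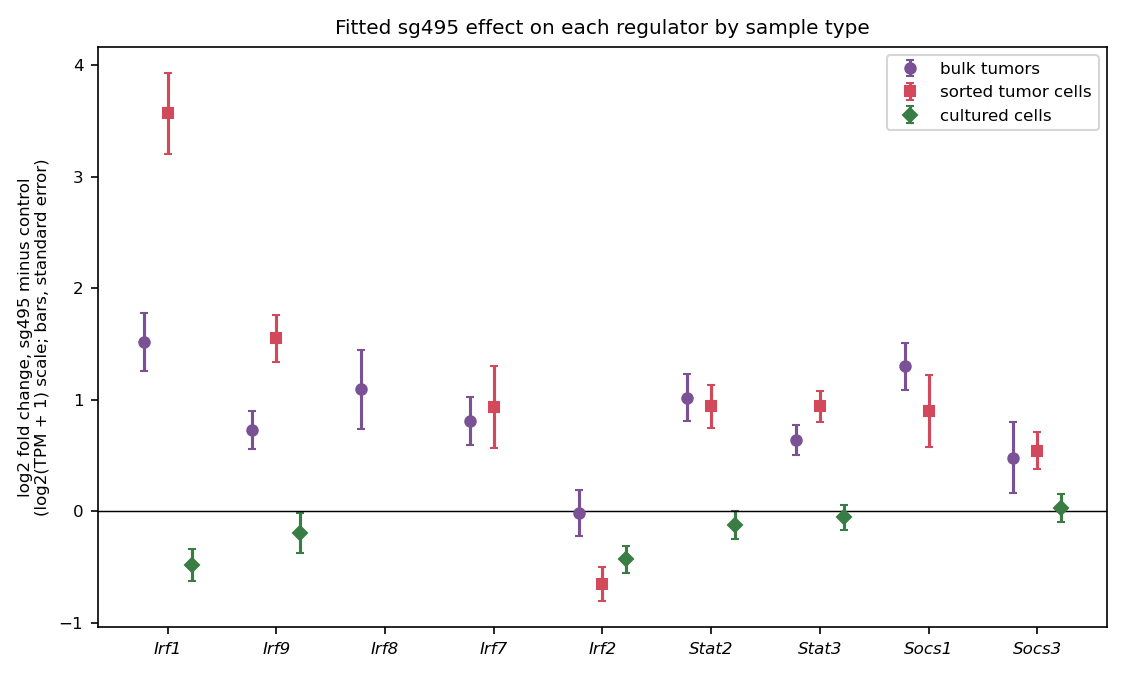
Log2 fold change of sg495 against control (vertical, log2(TPM + 1) scale) for each regulator by sample type (bulk tumors, sorted cells, cultured cells). Points are fitted values and bars are standard errors, and genes averaging under 1 TPM in a sample type are left out. Irf1 in sorted tumor cells is at 3.57, and Irf2 has no value above 0, although its bulk value of −0.01 changes sign when chromosome 8 is centred.

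Whether the sg495 difference depended on the sample type was tested directly. It was larger for sorted tumor cells than for cultured cells in 4 of the 9, where 2.51% of all genes were called. The difference between the 2 effects was 4.05 for Irf1 (standard error 0.454, limma adjusted p = 0.000745), 1.75 for Irf9 (standard error 0.283, adjusted p = 0.00670), 1.06 for Stat2 (standard error 0.256, adjusted p = 0.0400) and 1.00 for Stat3 (standard error 0.206, adjusted p = 0.0212). With each of the 8 libraries left out in turn, Irf1 and Irf9 passed in all 8 fits. Stat2 then passed only without sg495 sorted tumor cells replicate 2 (adjusted p from 0.0690 to 0.136 in the others). Stat3 was lost without either cultured control, cultured sg495 replicate 2, sorted control replicate 2 or sorted sg495 replicate 2 (adjusted p from 0.0504 to 0.0958). Without the filter on low genes Stat2 (0.0953) and Stat3 (0.0545) did not pass, nor did Stat2 after quantile normalization (0.0675). For Irf2 the effects differed by −0.22, which was not called. Between bulk tumors and cultured cells, 2 of 9 were called, where 1.76% of all genes were. These were Stat2 at 1.14 (standard error 0.256, adjusted p = 0.0414) and Irf1 at 2.0 (standard error 0.454, adjusted p = 0.0433). Both passed when bulk control replicate 1 was left out and neither did without any other of the 8 libraries (adjusted p from 0.0668 to 0.167). Neither passed with a pseudocount of 0.1 TPM, without the filter or after quantile normalization (adjusted p up to 0.0740). Between bulk tumors and sorted tumor cells 0 of 9 were called and 3 had an unadjusted p below 0.05, where 0.122% of all genes were called and 16% had such a p. The 3 were Irf1, with an effect smaller by 2.05 in bulk tumors (adjusted p = 0.0992), Irf9, smaller by 0.83 (adjusted p = 0.182), and Irf2, larger by 0.64 (adjusted p = 0.244).

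The control groups were also compared between sample types. Control bulk tumors exceeded control sorted tumor cells for 6 of the 9, where 12.7% of all genes were called. The log2 differences were 2.86 for Irf8, 2.79 for Irf7, 2.63 for Irf1, 1.36 for Socs1, 1.25 for Irf9 and 0.81 for Stat2 (limma adjusted p from 2.45e-05 to 0.00558). Stat2 alone of these was lost when a library was left out, bulk control replicate 1 (adjusted p = 0.0604) or sorted control replicate 2 (adjusted p = 0.0554). Stat3, Irf2 and Socs3 were not called, at 0.37, 0.28 and 0.24. Irf8 averaged 13.4 TPM in bulk tumors, 0.65 TPM after sorting and 0.03 TPM in cultured cells, and Socs1 6.09, 1.06 and 0.76 TPM. Irf8 and Socs1 thus passed the filter over the 18 libraries only through bulk tumors, so the direction of their calls was partly set by the filter. All 9 leukocyte, 8 macrophage, 6 fibroblast and 4 endothelial markers were also called higher in control bulk tumors, and 0 of 7 melanocyte markers were called. Ptprc, at most 0.15 TPM after sorting and 0 TPM in cultured cells, and other such markers likewise passed the filter only through bulk tumors. Only the sorted cells had been digested and sorted, so the cells present and this handling cannot be told apart. Control sorted tumor cells differed from control cultured cells for 5 of the 9, where 20.2% of all genes were called. Socs3 was higher in the sorted cells by 1.3 (standard error 0.246, adjusted p = 0.00104), Irf7 by 0.93 (adjusted p = 0.0484), Irf9 by 0.71 (adjusted p = 0.0127) and Stat3 by 0.60 (adjusted p = 0.00558). Irf1 was lower, at −1.37 (standard error 0.321, adjusted p = 0.00427). Socs3 passed with any of the 4 libraries left out. Irf7 was lost without any 1 of them (adjusted p from 0.0899 to 0.189), and Irf1 without sorted control replicate 2 (−0.91, adjusted p = 0.0553). Irf9 and Stat3 were lost without cultured control replicate 2 (adjusted p = 0.112 and 0.0526) or sorted control replicate 1 (adjusted p = 0.122 and 0.0552). After quantile normalization Irf7 (0.242) and Irf9 (0.0643) were not called. Of the 14 listed STAT3 targets, 13 were tested, 7 were called higher and 1 lower, with a median of 0.80. The largest differences were 6.92 for Fos, an immediate early gene, 2.40 for Cebpb and 2.24 for Cebpd, and the lower gene, named after its value was seen, was Birc5, an inhibitor of apoptosis (−0.95).

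Genes downstream of these factors were read from lists chosen with earlier results of these data known. Of 14 genes bound through GAS or by Irf1, 11 were tested in sg495 sorted tumor cells and 9 were called, all higher, with a median log2 fold change of 3.79. In this comparison 0.899% of all genes were called and 15.6% had an unadjusted p below 0.05 in limma. The largest were Igtp, an immunity-related GTPase (5.10), and Psmb8 (5.07) and Psmb9 (4.83), subunits of the immunoproteasome (limma adjusted p from 0.00964 to 0.0181). Of 14 ISGF3 targets, 11 were tested and 4 were called, all higher, with a median of 1.48. The largest were Rtp4 (1.90), the antiviral enzyme Rsad2 (1.65) and the RNA sensor Ddx58 (1.58). Of 14 STAT3 targets, 11 were tested, 0 were called and 1 had an unadjusted p below 0.05, with a median of 0.22. Of the 11, 8 had both edited libraries above both controls and 1 had both below, where 17.9% and 31.5% of all genes did. The 4 other IRF genes, the 6 other SOCS genes, the 9 other inhibitors of JAK-STAT signaling and the 3 corepressors that bind Irf2 had 3, 5, 9 and 3 tested in these cells and 0 called, with 1, 0, 2 and 0 at an unadjusted p below 0.05. In sg495 bulk tumors none of the 14 GAS and Irf1 targets or the 14 ISGF3 targets was called, but all had an unadjusted p below 0.05 and both edited libraries above both controls, with medians of 1.43 and 1.03. Of all genes there, 0.0293% were called, 15.7% had such a p and 31.6% had both edited libraries above both controls. The 9 leukocyte markers had a median of 1.01 in the same comparison. In sg495 cultured cells 3 GAS and Irf1 targets were tested and 0 called, where 2.77% of all genes were called. Among 9 ISGF3 targets tested, Oas1a fell by 1.52 (adjusted p = 0.00770), and among 11 STAT3 targets Vegfa fell by 0.94 (adjusted p = 0.00192). Of these 11 STAT3 targets, 8 had an unadjusted p below 0.05 in limma, where 27.8% of all genes did, and the median was 0.20.

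The genes whose pattern was nearest to each regulator were found by Pearson r of log2(TPM + 1) over the 18 libraries after the mean of each sample type was subtracted, among 13152 genes. Irf1 was nearest to Irgm2 (0.988), Stat2 to Parp14 (0.974), Irf8 to Icam1 (0.961), Stat3 to Hsd17b1 (0.952) and Irf9 to Irf1 itself (0.944). Socs1 was nearest to Trim12c (0.921), Irf2 to Fem1b (0.907), Socs3 to Zfp72 (0.904) and Irf7 to Nfkbia (0.890). The 18 points share 9 groups, so these r are descriptions and carry no test. Irf2 had r between −0.34 (with Irf1) and −0.04 (with Socs3) with the other 8 regulators on this scale. Without the subtraction, Irf7 was nearest to the macrophage gene Cd68 (0.982) and Irf8 again to Icam1 (0.997).

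In the IgG and anti-PD1 libraries all 9 regulators were above both control bulk tumors in each of the 5 libraries, and these libraries had more leukocyte and fewer melanocyte transcripts. The share of all genes above control bulk tumors was not computed, nor that without overlap between IgG and anti-PD1. Both counts are thus descriptions and not results about the regulators. Irf1 had 199.19 and 327.1 TPM with IgG and 57.57, 190.78 and 289.7 TPM with anti-PD1. Irf7 had 141.97 and 366.71 TPM with IgG and 28.02, 87.42 and 171.28 TPM with anti-PD1, and Irf8 162.68 and 207.65 TPM against 64.17, 127.26 and 181.28 TPM. Irf9 had 48.69 and 73.7 TPM with IgG and 25.29, 40.36 and 46.44 TPM with anti-PD1, and was the 1 regulator whose groups did not overlap. Irf2 had 83.28 and 124.75 TPM against 48.65, 68.2 and 94.1 TPM. Stat2 had 48.03 and 79.73 TPM against 20.22, 38.91 and 55.57 TPM, and Stat3 137.73 and 144.82 TPM against 67.69, 115.67 and 154.1 TPM. Socs1 had 41.4 and 85.53 TPM with IgG and 17.27, 51.73 and 77.94 TPM with anti-PD1, and Socs3 98.67 and 144.29 TPM against 45.77, 102.68 and 120.42 TPM. Stat3 was thus 1.82 to 3.35 times as abundant as Stat2 in these 5 libraries, against 5.12 to 14.1 times in the other 18. All 9 log2 fold changes of anti-PD1 against IgG were below 0, from −0.40 for Stat3 to −1.59 for Irf7, with a median of −0.68. None was called by limma (adjusted p from 0.608 to 0.764) and 0 had an unadjusted p below 0.05, where 0% of all 13418 genes were called and 7.18% had such a p. Anti-PD1 replicate 1 had the lowest level of all 9, a leukocyte sum of 2850 TPM against 4862 and 5216 TPM in the other anti-PD1 libraries, and 21.9% mitochondrial TPM. Without it the median was −0.27, with 8 of 9 below 0 and Socs1 at 0.09.

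**Figure D5:**
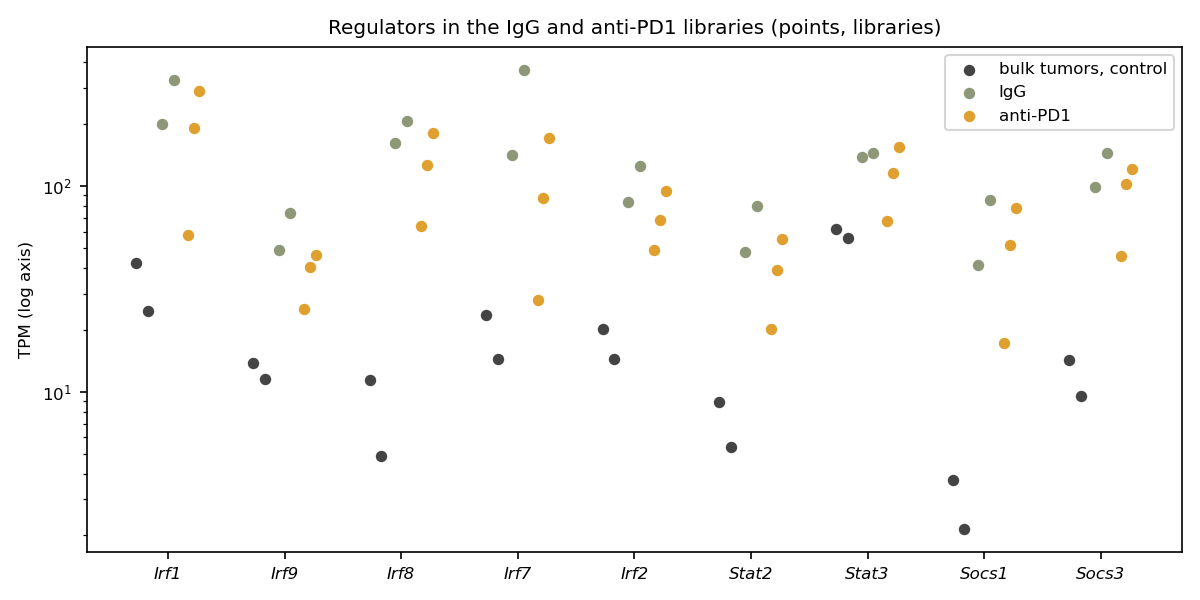
TPM of each regulator (vertical, log axis) in control bulk tumors, IgG and anti-PD1 libraries, 1 point per library. The lowest anti-PD1 point is replicate 1 for every gene (57.57 TPM for Irf1), and only for Irf9 do the IgG points (48.69 and 73.7 TPM) all lie above the anti-PD1 points.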

How the data were processed

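RNA-seq libraries of bulk B16F10 tumors, sorted tumor cells and cultured cells (18) and libraries labeled IgG or anti-PD1 (5) were grouped by their labels. Per the labels and methods, the authors trimmed poly(A), single-end reads with Cutadapt 2.3, aligned them to mm10 with STAR 2.7.0d and quantified genes with RSEM 1.3.1. They deposited TPM, which were used here. The authors' own test, DESeq2 on estimated counts, was not repeated, as counts were not used here.

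The values log2(TPM + 1) of genes averaging at least 1 TPM over the libraries fitted were modeled with limma 3.58.1 in R 4.3.3 (eBayes with trend). A model was fitted per sample type for each guide against control, over all 18 libraries for differences between sample types, and separately for IgG and anti-PD1. Tests were 2-sided with Benjamini-Hochberg adjustment over all genes of a comparison. An exact permutation test of 2 against 2 libraries cannot go below p = 0.333. Replicates were not stated to be separate animals, so p-values measure the spread between these libraries.

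On simulated data of the sg495 comparison, 75% of 2-fold changes were called among 13479 genes in bulk tumors, 77.5% among 12697 in sorted cells and 94.8% among 11892 in cultured cells. These shares hold for the drawn data only. In the measured bulk tumors 0.0293% of all genes were called, and Irf1 at a log2 fold change of 1.52 was not. The shares are therefore not the power of the tests reported here. Positions came from GENCODE M21 (99.1% of genes matched) and promoters from RefSeq. Plots were drawn with matplotlib 3.10.9 in Python 3.11.15. Named were the 9 regulators, Nr2f6, at most 3 called genes per list and comparison, cell type markers, and the genes nearest in pattern, of which the first is given. The regulators, lists and rules were chosen with earlier results of these data known. Results for some listed genes are not reported here.

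Alternatives were quantile normalization, scaling by median of ratios, a pseudocount of 0.1 TPM, a filter at 5 TPM or none, the replicate number as a block, 1 fit of all 18 libraries, and each library left out. Centering of chromosome 8 was added after the data had been seen.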

Additional observations from a re-analysis of the deposited data

Results flagged for a closer look

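The sg495 effect on 4 regulators differed between sample types by limma's interaction test. From cultured to sorted tumor cells the effect was larger by 4.05 for Irf1, 1.75 for Irf9, 1.06 for Stat2 and 1.00 for Stat3 on the log2 scale. In that comparison 2.51% of all genes were called, and Stat2 and Stat3 did not pass without the filter on low genes. From cultured cells to bulk tumors the effect was larger by 2.0 for Irf1 and 1.14 for Stat2, where 1.76% of all genes were called. Neither of these 2 passed without the filter, with a pseudocount of 0.1 TPM or after quantile normalization. The sorted sg495 replicate 1 library, with 8.02% mitochondrial TPM, is in a group of the first comparison and in none of the second. Both were fitted over all 18 libraries, so this library also enters the estimate of the spread in the second. It was not among the libraries left out there. No group had the 4 samples that a check for single outlying libraries needs.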

How the results depend on the processing

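Of the 9 regulators, 3 were called in sg495 sorted tumor cells, 0 with no filter, 6 in the fit of all 18 libraries (also Stat2, Irf2 and Socs1), and 0 to 1 with a library left out (of all genes 0.899%, 0.0128%, 3.03%, and 0.0312% to 0.38%). In sg495 bulk tumors the count was 0, 4 in the fit of all 18 libraries (Stat2, Stat3, Irf1 and Socs1), and 0 to 4 with a library left out (of all genes 0.0293%, 3%, and 0% to 1.39%). Between the effects in sorted and cultured cells it was 4, 2 with no filter, and 2 to 3 with a library left out (of all genes 2.51%, 0.763%, and 1.03% to 2.47%). Between bulk tumors and cultured cells it was 2, 0 with a pseudocount of 0.1 TPM, no filter or quantile normalization, and 0 to 4 with a library left out (of all genes 1.76%, 1.49%, 0.947%, 1.38%, and 0.265% to 3.18%). For control sorted against control cultured cells it was 5, 3 after quantile normalization, and 2 to 4 with a library left out (of all genes 20.2%, 18%, and 18.2% to 19%). For the other 7 comparisons no setting other than the replicate block moved the count by over 1.5 times. More genes are adjusted for without the filter, and the all-library fit shares 1 estimate of the spread. The cause of the moves was not tested.

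Libraries with the same replicate number were not stated to be paired, and their deviations from the group means correlated between −0.126 and 0.0507. With a replicate block the count was 1 between bulk tumors and cultured cells, 3 for control sorted against control cultured cells and 3 for anti-PD1 against IgG (Stat2, Irf1 and Irf7), where 0.661%, 18.6% and 3.83% of all genes were called. Stat3 in sg495 sorted tumor cells (adjusted p = 0.101) and Stat2 between sorted and cultured cells (adjusted p = 0.0612) were not called with it.

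The difference of Irf2 in sg495 bulk tumors was 0.24 with chromosome 8 centred and −0.24 to 0.22 with a library left out. With a library left out, Stat3 in sg495 cultured cells ran from −0.21 to 0.10, Socs3 there from −0.029 to 0.094, and Socs1 for anti-PD1 from −1.03 to 0.091. No scaling moved the median of all genes by 0.1. TPM hold no read counts, so no limit of detection could be set for regulators near 0 TPM, such as Irf8 in cultured cells.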
